A study of Mus musculus with 11 samples.

Results

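The interferon-induced genes are a set of 44 mouse genes that type I, II or III interferon raises in many cell types, and they were taken by gene symbol from a named list. Of these, 43 matched a feature with 1 gene symbol among the 23185 such features of the array, and Ifi44 is not analysed here. They were measured in RNA of cells sorted from mouse liver, on 11 Affymetrix MoGene 2.0 ST arrays in 4 groups. The YFP+ DDC group (3 arrays) held cells carrying yellow fluorescent protein (YFP) from mice on a DDC diet, for which the protocol names 5 weeks and 4 mice without tying mice to arrays. The YFP+ CDE group (3 arrays) held YFP+ cells from mice on CDE, with no duration given. The YFP+ UTR group (2 arrays) held YFP+ cells of untreated mice, and the YFP- group (3 arrays) held YFP-negative cells of untreated mice. In this field DDC usually stands for a diethoxycarbonyl dihydrocollidine diet, which injures bile ducts, and CDE for a choline-deficient, ethionine-supplemented diet, which injures hepatocytes. Cells came from collagenase-perfused liver, were spun slowly to leave the non-parenchymal cells, and were sorted live on a YFP gate set with wild-type mice. The labels name neither strain, age, nor the promoter that drives YFP, and they leave unsaid whether each array is its own animal. The p-values therefore measure how far these samples spread, which may be technical.

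Values are the deposited log2 values, and differences between groups are given on that log2 scale. The sample titles call the cells of all groups, YFP- included, liver progenitor cells, and that identity was not checked here. All 7 measured biliary epithelium markers, among them Krt19, Sox9 and Epcam, were higher in YFP+ UTR than in YFP- arrays, by a median of 4.41. The YFP- arrays held a mixture. Their 8 sinusoidal endothelium markers were all higher than in YFP+ UTR, 1 array (YFP- 2) alone carried a high lymphocyte list mean (9.63, against 4.67 and 4.83 on YFP- 1 and YFP- 3), YFP- 3 had the highest macrophage and Kupffer cell list mean (11.67, against 9.12 on YFP- 1 and 8.87 on YFP- 2), and YFP- 1 kept a biliary list mean of 7.71, against 4.77 and 4.59 on YFP- 2 and YFP- 3.

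Interferons are secreted alarm proteins. They act through cell-surface receptors coupled to JAK kinases. Many genes induced by type I and III interferons carry the interferon-stimulated response element (ISRE) in their promoters, and many induced by type II interferon carry the gamma-activated site (GAS). The induced genes sense foreign RNA and DNA, stop viral translation and assembly, attach ISG15 to proteins, attack vacuoles that hold pathogens, and supply peptides to MHC class I. In liver, macrophages, endothelium and epithelial cells all carry interferon receptors, and many of these genes have a basal level without infection.

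Promoter windows from 250 bases before to 50 bases after the annotated start were available from RefSeq (GRCm38.p6) for 31 of the 43 genes. The ISRE core was searched as TTTCNNTTTC and its reverse complement GAAANNGAAA, and the GAS core as TTCNNNGAA, which reads alike on both strands. Matches of the 2 motifs can share bases. An ISRE core lay in the window of 16 of the 31 genes (51.6%), against 3.99% of 27025 annotated genes. A GAS core lay in 9 of the 31 (29.0%), against 9.55% of annotated genes. These are letter matches in the window, with no test and no measurement of binding. The windows below come from 9 of the 16 genes with an ISRE core and were picked to show how the cores are arranged, each 30 bases long, on the strand of the gene, 5′ to 3′, with the ISRE cores in capitals. They show that Isg15 has 3 cores overlapping end to end, that Bst2 and Gbp3 have 2 overlapping cores each, that Ifit1 has 2 separate ones, and that the others have 1 in the bases shown.
Isg15: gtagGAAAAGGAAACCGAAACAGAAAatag
Bst2: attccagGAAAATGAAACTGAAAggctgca
Ifit1: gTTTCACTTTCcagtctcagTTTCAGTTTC
Ifit3: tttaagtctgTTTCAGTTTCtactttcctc
Igtp: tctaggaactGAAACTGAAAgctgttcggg
Gbp3: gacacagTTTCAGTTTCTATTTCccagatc
Rsad2: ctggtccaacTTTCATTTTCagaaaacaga
Ifi203: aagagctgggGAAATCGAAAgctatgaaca
Trim30a: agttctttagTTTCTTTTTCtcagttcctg

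On GRCm38.p6 the Isg15 window is chr4:156200871-156200900 (minus strand), that of Bst2 chr8:71537580-71537609 (minus), that of Ifit1 chr19:34640784-34640813 (plus) and that of Ifit3 chr19:34583397-34583426 (plus). The Igtp window is chr11:58199512-58199541 (plus), that of Gbp3 chr3:142559992-142560021 (plus) and that of Rsad2 chr12:26456553-26456582 (minus). The Ifi203 window is chr1:173942508-173942537 (minus) and that of Trim30a chr7:104465210-104465239 (minus). Ifit3 has a further core outside the bases shown, at position -156 from its start. Of the 9 genes, Bst2, Gbp3, Rsad2, Ifi203 and Trim30a were called lower in YFP+ UTR against YFP-, and Ifit1, Ifit3, Igtp and Isg15 were not. Ifit2, called in the diet comparisons below, has a window with a GAS core and no ISRE core. Genes with an ISRE core had a median difference of -0.44 between YFP+ DDC and YFP+ CDE (16 genes), and the genes with a window but no core had -0.24 (15 genes). Between YFP+ UTR and YFP- the medians were -1.19 with a core and -0.68 without, and between YFP+ DDC and YFP+ UTR -0.40 and -0.33. For the GAS core (9 genes with, 22 without) the medians were -0.24 with and -0.42 without between DDC and CDE, -0.71 and -0.77 between YFP+ UTR and YFP-, and -0.29 and -0.43 between DDC and UTR. With the mean of the 3 YFP+ groups against YFP- the medians were -1.16 with an ISRE core and -0.81 without, and -1.05 with a GAS core and -0.88 without. Between YFP+ CDE and YFP+ UTR they were 0.03 with an ISRE core and -0.05 without, and -0.05 with a GAS core and -0.04 without. Genes with an ISRE core thus had the more negative median in the other 4 comparisons and not between CDE and UTR. Genes with a GAS core had it between CDE and UTR and with the mean of the 3 YFP+ groups. The comparisons share arrays. These medians describe 31 genes and were not tested.

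**Figure D1:**
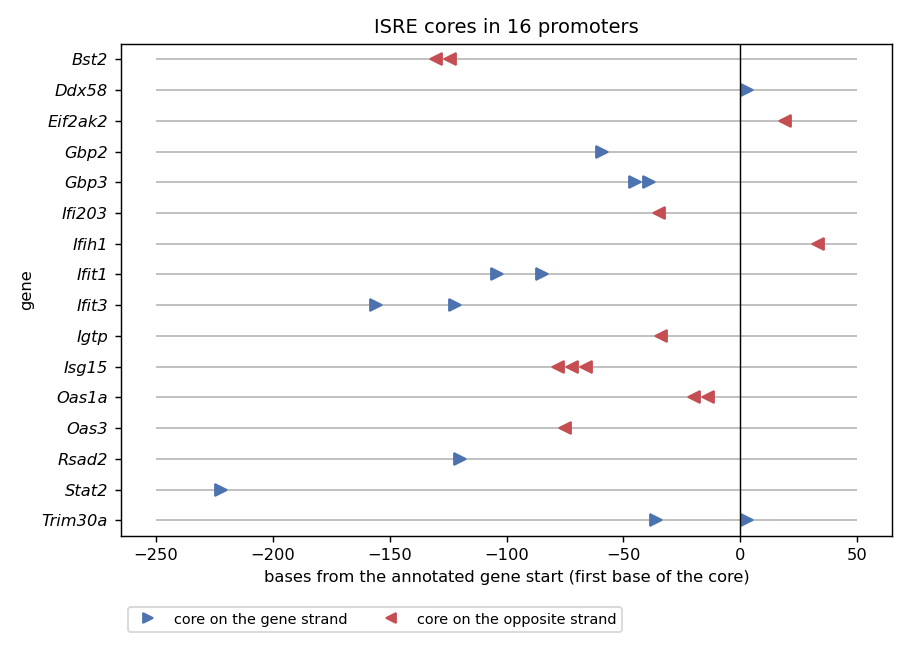
Positions of ISRE cores in the promoter windows of the 16 genes that hold one, in bases from the annotated start (x axis), 1 gene per row. Arrows to the right mark a core on the gene's strand (TTTC form) and arrows to the left a core on the opposite strand (GAAA form); cores before the start run from -222 (Stat2) to -14 (Oas1a), and Ifih1, Ddx58, Eif2ak2 and a second Trim30a start have one after the start.

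Untreated YFP+ cells had lower levels of 14 interferon-induced genes than untreated YFP- cells. In YFP+ UTR against YFP-, 14 of 43 genes were lower past an adjusted p of 0.05 and 1, Ifi27, was higher, where 8.46% of all genes were called lower and 10.4% higher. The median difference of the 43 genes was -0.90, against -0.01 for all genes, and 40 of the 43 were negative. The lowest were DNA-sensor family members Ifi203 and Ifi204 and the TRIM protein gene Trim30a. In 21 genes both UTR arrays lay below all 3 YFP- arrays and in 1 both lay above, where 20.5% and 22.5% of all genes did so. When only the 5 UTR and YFP- arrays entered the fit, 4 genes were called lower (Bst2, Ifi203, Ifi204 and Trim30a) and 0 higher. Every other call of YFP+ UTR against YFP- was lost in that fit, which called 402 of all genes lower and 529 higher. Without YFP- 1, 26 of the 43 were lower, and without YFP- 3, 10 were. Of all genes, 2906 and 1916 were lower in these 2 fits, against 1961 with no array left out. The median difference of the 43 genes was -0.53 without UTR 1 and -1.22 without UTR 2.

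**Figure D2:**
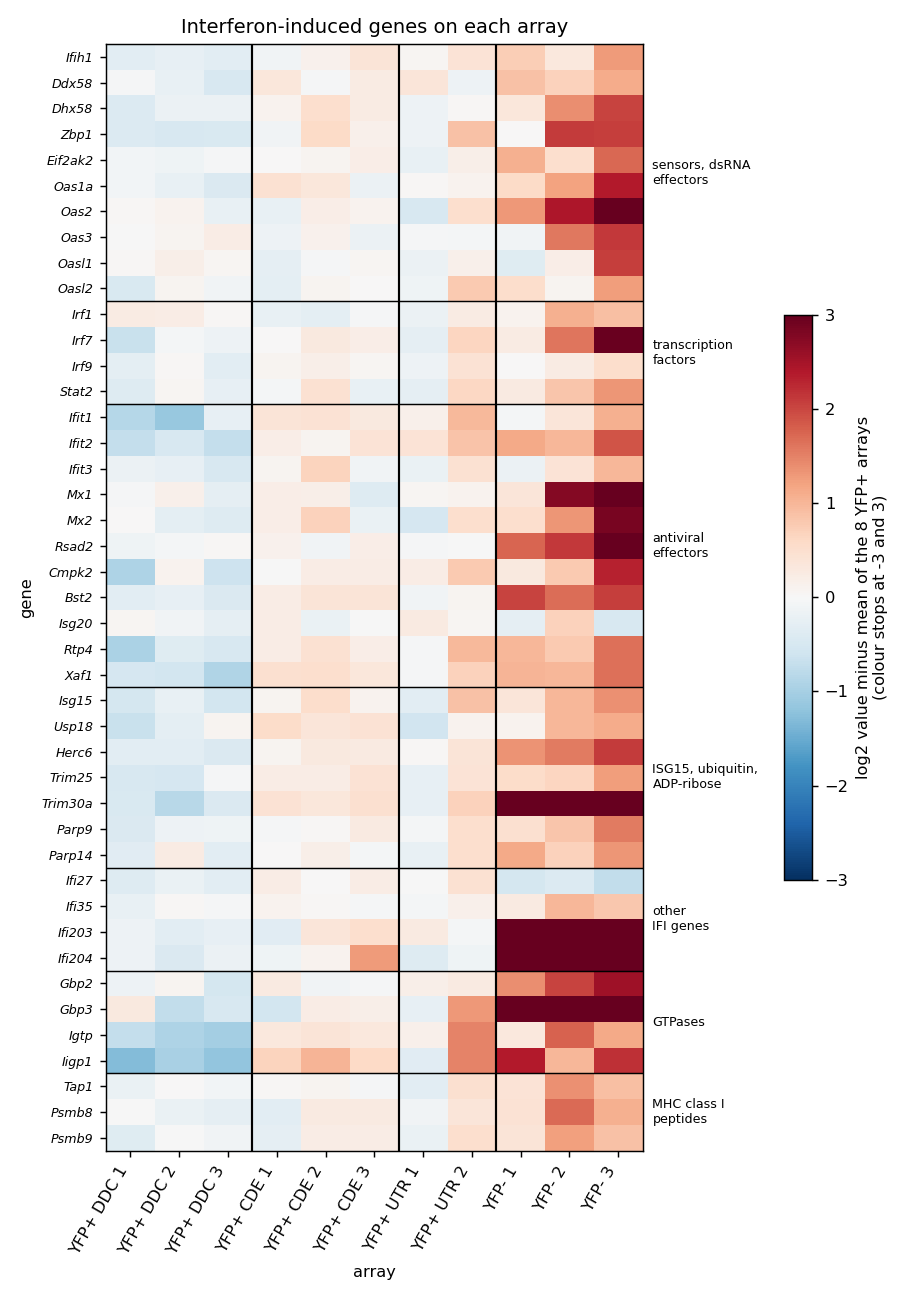
Each row is 1 of the 43 interferon-induced genes and each column 1 array, ordered YFP+ DDC, YFP+ CDE, YFP+ UTR, YFP-; the colour is the log2 value minus the gene's mean over the 8 YFP+ arrays, with the scale stopping at -3 and 3. The 3 YFP- columns are mostly above the YFP+ mean, by a median of 0.48, 1.00 and 1.66 on YFP- 1, YFP- 2 and YFP- 3, and the DDC columns mostly below it.

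Among the IFI genes, which carry the name of interferon-inducible proteins of several families, Ifi203 and Ifi204 encode nuclear proteins of the PYHIN family that bind DNA. Ifi203 read 3.54, 3.37 and 3.45 on the DDC arrays, 3.36, 4.05 and 4.20 on the CDE arrays, 3.95 and 3.62 on the UTR arrays, and 10.42, 10.72 and 10.79 on the YFP- arrays. Ifi204 read 3.58, 3.32 and 3.56 on the DDC arrays, 3.62, 3.85 and 5.03 on the CDE arrays, 3.37 and 3.62 on the UTR arrays, and 10.29, 9.27 and 11.11 on the YFP- arrays. Both were near the floor in all 3 YFP+ groups, meaning that the group mean lay below the lower quartile of every array of that group, and both were far above it on all 3 YFP- arrays. The estimated difference of YFP+ UTR from YFP- may therefore be understated. Ifi203 was 116-fold lower by this estimate (log2 difference -6.86 ± 0.24 SE, adjusted p = 3.30e-06). Ifi204 was 106-fold lower (-6.73 ± 0.52, adjusted p = 7.93e-05). Ifi27, an interferon-induced protein of mitochondrial and nuclear membranes, ran the other way. It read 10.43, 10.64 and 10.50 on the DDC arrays, 11.04, 10.84 and 11.05 on the CDE arrays, 10.82 and 11.29 on the UTR arrays, and 10.29, 10.41 and 10.09 on the YFP- arrays. All 8 YFP+ arrays thus lay above all 3 YFP- arrays, and Ifi27 was 1.73-fold higher in YFP+ UTR (0.79 ± 0.16, adjusted p = 0.00915), a call lost without UTR 2 and in the fit of UTR and YFP- arrays alone. Ifi35, which binds the partner protein NMI, differed by -0.64 ± 0.20 (adjusted p = 0.0548).

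Among the ISG15 system and its relatives, 3 of 7 genes were lower in YFP+ UTR than in YFP-. Trim30a, a mouse TRIM protein that damps Toll-like receptor signalling, read 4.08, 3.70 and 4.09 on the DDC arrays, 4.97, 4.87 and 5.01 on the CDE arrays, 4.29 and 5.23 on the UTR arrays, and 9.37, 8.77 and 10.04 on the YFP- arrays. It was 24.7-fold lower in YFP+ UTR (-4.63 ± 0.36, adjusted p = 8.36e-05). Herc6, the main ISG15 ligase of the mouse, was 2.74-fold lower (-1.45 ± 0.21, adjusted p = 0.00137), and all 8 YFP+ arrays, at 6.64 to 7.47, lay below the YFP- values of 8.43, 8.64 and 9.17. Parp14, an ADP-ribosyltransferase, was 1.86-fold lower (-0.90 ± 0.27, adjusted p = 0.0463), a call lost in 12 of 17 alternative settings, among them the fits without UTR 1, YFP- 1 or YFP- 3. Isg15 itself, the ubiquitin-like modifier, read 6.27, 6.56 and 6.24 on the DDC arrays, 6.88, 7.31 and 6.88 on the CDE arrays, 6.48 and 7.68 on the UTR arrays, and 7.14, 7.78 and 8.16 on the YFP- arrays. The 2 UTR arrays of Isg15 lay further apart than the 3 YFP- arrays did, and its difference of -0.62 ± 0.37 missed the threshold (adjusted p = 0.301).

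The antiviral effectors split. Of 11, 3 were lower in YFP+ UTR and 0 higher. Bst2, or tetherin, which holds budding virus at the cell surface, read 9.40, 9.47 and 9.29 on the DDC arrays, 9.94, 10.10 and 10.11 on the CDE arrays, 9.62 and 9.80 on the UTR arrays, and 11.74, 11.39 and 11.78 on the YFP- arrays. Its 3.80-fold lower level in YFP+ UTR (-1.93 ± 0.14, adjusted p = 6.39e-05) was also called in all 17 alternative settings. Rsad2, or viperin, which makes a chain-ending nucleotide, read 5.59, 5.67 and 5.75 on the DDC arrays, 5.84, 5.61 and 5.93 on the CDE arrays, 5.69 and 5.72 on the UTR arrays, and 7.47, 7.84 and 9.34 on the YFP- arrays. The YFP+ values of Rsad2 spanned a narrow range under every YFP- value, a 5.69-fold lower level in YFP+ UTR (-2.51 ± 0.44, adjusted p = 0.00389). Xaf1, named as a partner of the apoptosis inhibitor XIAP, was 1.86-fold lower (-0.90 ± 0.26, adjusted p = 0.0408), a call lost in 11 of the 17, among them the fits without UTR 1 or YFP- 3. Mx1, a dynamin-like GTPase against RNA viruses, was near the floor in all 3 YFP+ groups, at 3.52 to 4.10, and read 4.27, 6.66 and 7.17 on the YFP- arrays. YFP- 1 was thus close to the YFP+ range, and the difference of -2.03 ± 0.69 missed the threshold (adjusted p = 0.0711). Ifit1, which binds viral RNA lacking the host cap mark, and the nuclease gene Isg20 were the effectors with a positive difference, 0.11 ± 0.37 (adjusted p = 0.872) and 0.18 ± 0.30 (adjusted p = 0.738). For Isg20 the UTR values of 8.10 and 7.90 lay inside the YFP- range of 7.37 to 8.53, with DDC at 7.89, 7.75 and 7.56 and CDE at 8.06, 7.63 and 7.84.

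Of the RNA sensors and double-stranded RNA effectors, 4 of 10 were lower in YFP+ UTR. Oas2, a synthetase whose product activates RNase L, read 6.47, 6.55 and 6.22 on the DDC arrays, 6.22, 6.64 and 6.54 on the CDE arrays, 5.98 and 6.94 on the UTR arrays, and 7.75, 8.86 and 10.45 on the YFP- arrays. It was 5.90-fold lower in YFP+ UTR (-2.56 ± 0.63, adjusted p = 0.0205), with no YFP+ array reaching the lowest YFP- array. The RNA helicase sensor Ddx58 (RIG-I) differed by -0.79 ± 0.21 (adjusted p = 0.0276), its relative Dhx58 by -1.31 ± 0.39 (adjusted p = 0.0448), and the translation-blocking kinase gene Eif2ak2 (PKR) by -1.12 ± 0.29 (adjusted p = 0.0254). The Dhx58 call was lost in 12 of the 17 settings, including those without UTR 1, UTR 2, YFP- 2 or YFP- 3. The Oas2 and Eif2ak2 calls were lost without UTR 1 and without UTR 2, and the Ddx58 call without UTR 2 or YFP- 3. Ifih1, Zbp1, Oas1a, Oas3, Oasl1 and Oasl2 were also negative, from -1.32 for Oas1a to -0.28 for Oasl2, and missed the threshold.

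Of the interferon-induced GTPases, 2 of 4 were lower in YFP+ UTR. Gbp2 and Gbp3 encode guanylate-binding proteins that coat vacuoles holding pathogens. Gbp3 read 5.09, 4.04 and 4.31 on the DDC arrays, 4.23, 5.01 and 4.96 on the CDE arrays, 4.55 and 6.09 on the UTR arrays, and 7.79, 7.82 and 9.54 on the YFP- arrays. It was 8.37-fold lower in YFP+ UTR (-3.06 ± 0.62, adjusted p = 0.00807), and UTR 2 was the highest of the 8 YFP+ arrays; the call was lost without UTR 1. Gbp2 was 3.38-fold lower (-1.76 ± 0.30, adjusted p = 0.00361). Igtp and Iigp1, immunity-related GTPases that act on the same vacuoles, differed by -0.25 ± 0.44 (adjusted p = 0.743) and -1.29 ± 0.53 (adjusted p = 0.129). The transcription factors Irf1, Irf7, Irf9 and Stat2 were negative, from -1.41 for Irf7 to -0.13 for Irf9, with 0 of 4 past the threshold. So were the peptide supply genes Tap1, Psmb8 and Psmb9, the transporter and immunoproteasome subunits that feed MHC class I, from -0.94 for Psmb8 to -0.68 for Psmb9, with 0 of 3 past it.

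Against YFP-, the mean of the 3 YFP+ groups gave more calls, with 8 YFP+ arrays in place of 2. The DDC and CDE groups in that mean came from mice on a diet, so cell type and diet are mixed in it. In this comparison 34 of the 43 genes were lower and 1, Ifi27, was higher, where 14.3% and 16.3% of all genes were called, and the median was -1.08. All 7 genes of the ISG15 group, all 4 GTPases and all 3 peptide supply genes were lower, with 8 of 10 sensors, 7 of 11 effectors, 3 of 4 IFI genes and 2 of 4 transcription factors. Of the GTPases, Igtp and Iigp1 were not called in YFP+ UTR against YFP-. The group means of Igtp were 7.42 in DDC, 8.65 in CDE, 9.13 in UTR and 9.38 in YFP-. The 8 genes not called were Oasl1, Oasl2, Irf9, Stat2, Ifit1, Ifit3, Cmpk2 and Isg20, with differences between -1.08 for Cmpk2 and 0.04 for Isg20. Of the 35 calls, 19 held in every setting tried. The calls of Igtp and Zbp1 were lost in 11 of 16 alternative settings, those of Usp18 and Oas3 in 10, Isg15 in 9 and Irf7 in 8. That of Psmb9 was lost in 4 and that of Trim25 in 3. Without YFP- 3, the array with the highest macrophage list mean, 22 of the 43 were lower. Of all genes 2911 were lower in that fit, against 3306 with no array left out. With array weights 24 of the 43 were lower and 0 higher, where 2231 and 2303 of all genes were.

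Many markers of other cell types also differed between YFP+ UTR and YFP-. The summed linear values of 12 macrophage and Kupffer cell markers ranged over 1520 to 1710 on the UTR arrays and 10200 to 43100 on the YFP- arrays, and 7 of the 12 were lower past the threshold. The sums of 8 sinusoidal endothelium markers ranged over 353 to 548 and 11600 to 32400, with 8 of 8 lower, and those of 8 neutrophil and monocyte markers over 221 to 307 and 1900 to 18600, with 7 of 8 lower. The lymphocyte list (9 markers) summed to 298 to 320 on the UTR arrays and 296 to 13400 on the YFP- arrays, with 0 called. The 6 plasmacytoid dendritic cell markers, one of which is Bst2 itself, summed to 1120 to 1270 and 4350 to 9600, with 2 lower. The hepatocyte list (9 markers) ran the other way in its sums, 13900 to 14900 on the UTR arrays and 5700 to 12200 on the YFP- arrays. Of its markers 3 were called higher and 1 lower in YFP+ UTR. In the UTR group 2 of the neutrophil and monocyte markers, 1 of the plasmacytoid markers and 4 of the lymphocyte markers were near the floor, and none of the macrophage or endothelium markers were. The part of these cells in the lower YFP+ levels was not tested, and in such bulk samples fewer cells of a type and less RNA per cell cannot be told apart.

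**Figure D3:**
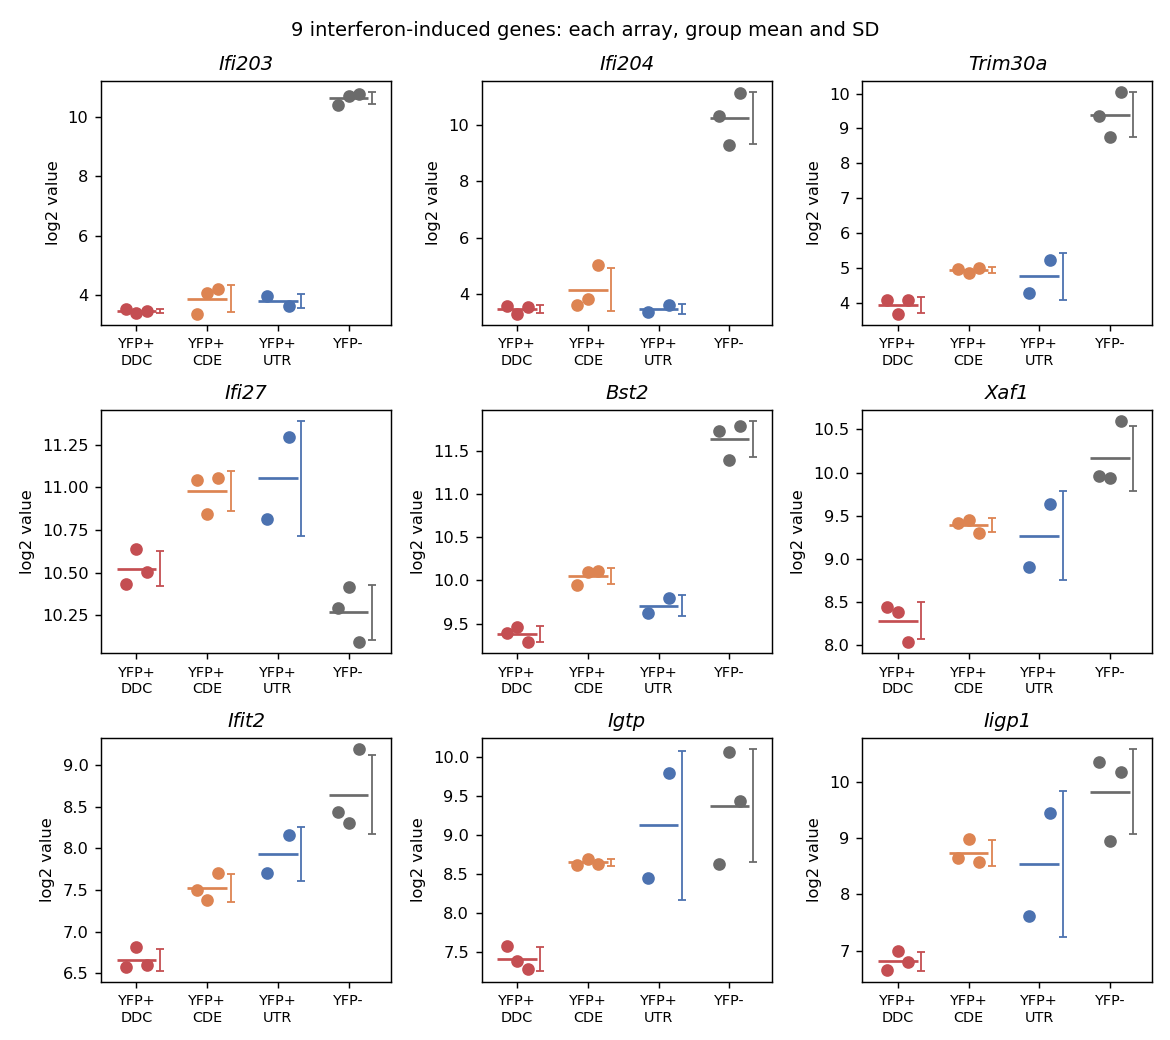
Log2 values (y axis) of 9 interferon-induced genes on every array, by group from YFP+ DDC to YFP- (x axis), with the group mean and SD as a bar beside the points; the UTR group has 2 arrays and the others 3. Ifi203, Ifi204, Trim30a, Bst2 and, the other way round, Ifi27 separate all YFP+ from all YFP- arrays, and Bst2, Xaf1, Ifit2, Igtp and Iigp1 have all 3 DDC arrays below all 3 CDE arrays.

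DDC and CDE are both injury diets, and within YFP+ cells the antiviral effector genes Ifit2, Bst2 and Xaf1 were lower with DDC. In YFP+ DDC against YFP+ CDE these 3 of 43 genes were lower past the threshold and 0 higher, where 0.742% and 0.418% of all genes were called. Of the 43 differences, 40 were negative, with a median of -0.44, while 47.0% of all genes were negative with a median of 0.01. In 23 genes all DDC arrays lay below all CDE arrays and in 1 (Irf1) above, where 10.6% and 9.64% of all genes did so. With any 1 of the 6 DDC and CDE arrays left out, 0 of the 43 were called. The fit of all 11 arrays and that with the replicate block also called 0, quantile normalization called Ifit2 alone, and leaving out either UTR array gave 6 calls, which added Igtp, Iigp1 and Trim30a; the median stayed between -0.46 and -0.36 in all of these fits.

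The effectors carried the calls. Ifit2, which binds AU-rich RNA and limits virus growth, read 6.58, 6.81 and 6.59 on the DDC arrays, 7.50, 7.38 and 7.70 on the CDE arrays, 7.71 and 8.16 on the UTR arrays, and 8.44, 8.30 and 9.19 on the YFP- arrays. Its DDC values lay below every other array, at 6.66 ± 0.13 in DDC against 7.53 ± 0.16 in CDE (SD, n = 3 each), a 1.82-fold lower level (-0.86 ± 0.15 SE, adjusted p = 0.0396). Bst2, with the values given above, was 1.59-fold lower in DDC than in CDE (-0.67 ± 0.10, adjusted p = 0.0280). Xaf1 read 8.44, 8.39 and 8.04 on the DDC arrays, 9.42, 9.45 and 9.30 on the CDE arrays, 8.91 and 9.63 on the UTR arrays, and 9.96, 9.94 and 10.60 on the YFP- arrays. The 2 diet groups of Xaf1 did not overlap, a 2.15-fold lower level in DDC (-1.10 ± 0.19, adjusted p = 0.0405). Ifit1, from the same gene family as Ifit2, read 6.99, 6.70 and 7.59 on the DDC arrays, 8.22, 8.27 and 8.15 on the CDE arrays, 8.0 and 8.82 on the UTR arrays, and 7.77, 8.20 and 8.92 on the YFP- arrays. It differed by -1.12 ± 0.26 (adjusted p = 0.0936), again without overlap, and DDC was its lowest group. Rtp4, a receptor transporter protein gene, read 8.15, 8.72 and 8.61 on the DDC arrays, 9.30, 9.54 and 9.28 on the CDE arrays, 9.06 and 10.06 on the UTR arrays, and 10.10, 9.88 and 10.75 on the YFP- arrays. Its difference was -0.88 ± 0.25 (adjusted p = 0.154). The remaining 6 effectors were negative too, from -0.62 for Cmpk2 to -0.04 for Mx1.

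The largest differences in size belonged to the 2 immunity-related GTPases, which missed the threshold. Iigp1 read 6.66, 6.99 and 6.79 on the DDC arrays, 8.64, 8.99 and 8.57 on the CDE arrays, 7.62 and 9.45 on the UTR arrays, and 10.35, 8.95 and 10.16 on the YFP- arrays. The DDC arrays were tightly grouped under all others, and the difference from CDE was 3.79-fold (-1.92 ± 0.39, adjusted p = 0.0673). The wide gap between the 2 UTR arrays enters the spread of the fit. With either UTR array left out, that group adds nothing to the spread, so both such fits of DDC against CDE are the same. Iigp1 was called there. Igtp read 7.59, 7.39 and 7.29 on the DDC arrays, 8.62, 8.70 and 8.64 on the CDE arrays, 8.45 and 9.80 on the UTR arrays, and 8.63, 10.07 and 9.44 on the YFP- arrays. It was likewise lowest on the 3 DDC arrays, with a difference of -1.23 ± 0.29 (adjusted p = 0.0972). Gbp2 and Gbp3 differed by -0.25 each, with adjusted p of 0.526 and 0.829.

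All 7 genes of the ISG15 group were negative in DDC against CDE and 0 passed the threshold. Trim30a differed by -0.99 ± 0.22 (adjusted p = 0.0851). Its DDC mean was near the floor, so the estimated 1.99-fold difference may be understated. Usp18, which removes ISG15 and damps the type I receptor, read 7.0, 7.39 and 7.75 on the DDC arrays, 8.23, 8.03 and 8.11 on the CDE arrays, 7.11 and 7.79 on the UTR arrays, and 7.78, 8.67 and 8.79 on the YFP- arrays. Its CDE arrays were the highest of the YFP+ arrays, and DDC differed from them by -0.74 ± 0.22 (adjusted p = 0.169). Isg15 differed by -0.67 ± 0.28 (adjusted p = 0.314) and Herc6 by -0.57 ± 0.12 (adjusted p = 0.0669).

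No gene of the other groups passed the threshold. Among the sensors, Dhx58 differed by -0.54 ± 0.13 (adjusted p = 0.0994), with DDC arrays at 6.29, 6.52 and 6.52 and CDE arrays at 6.81, 7.20 and 6.94. Oas3 and Oasl1 were the sensors and effectors of RNA with positive differences, 0.16 ± 0.11 (adjusted p = 0.548) and 0.17 ± 0.12 (adjusted p = 0.583), and their diet groups overlapped. The third gene with a positive difference was Irf1, the factor most linked to type II interferon. It read 8.40, 8.39 and 8.20 on the DDC arrays, 7.93, 7.87 and 8.12 on the CDE arrays, 7.98 and 8.41 on the UTR arrays, and 8.26, 9.23 and 9.06 on the YFP- arrays. DDC arrays of Irf1 all lay above CDE arrays, by 0.36 ± 0.13 (adjusted p = 0.261), while Irf7, Irf9 and Stat2 differed by -0.45, -0.30 and -0.25. The IFI genes ranged from -0.68 for Ifi204, near the floor in both groups, to -0.11 for Ifi35, and Tap1, Psmb8 and Psmb9 from -0.24 to -0.12.

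Macrophage markers also had negative differences. All 12 macrophage and Kupffer cell markers were lower in DDC than in CDE by value, with a median of -0.54, 0 of them past the threshold, and 3 of them without overlap. Their summed linear values ranged over 866 to 1280 on the DDC arrays and 1240 to 2860 on the CDE arrays, the highest on CDE 3, and C1qc, a complement subunit made by macrophages, differed by -1.72 ± 0.46 (adjusted p = 0.132). Cd5l was near the floor in DDC. Of the hepatocyte list 7 of 9 were negative and the albumin gene Alb was lower (-0.73 ± 0.09, adjusted p = 0.0162), with CDE 2 holding the highest list mean (9.07, against 7.79 to 8.10 on the DDC arrays). The part of either cell type in the lower DDC values was not tested. Other lists did not fall in the same way. Positive differences were found for 4 of 8 sinusoidal endothelium, 4 of 8 neutrophil and monocyte, and 6 of 9 lymphocyte markers. For biliary epithelium they were found in 6 of 7, with a median of 0.21. Of these 4 lists 0 markers were called. Bst2 is also 1 of the 6 plasmacytoid dendritic cell markers, of which 4 were positive and 2 negative in DDC against CDE, from -0.67 (Bst2 itself, the only one called) to 0.93, and the part of that cell type was not tested either.

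**Figure D4:**
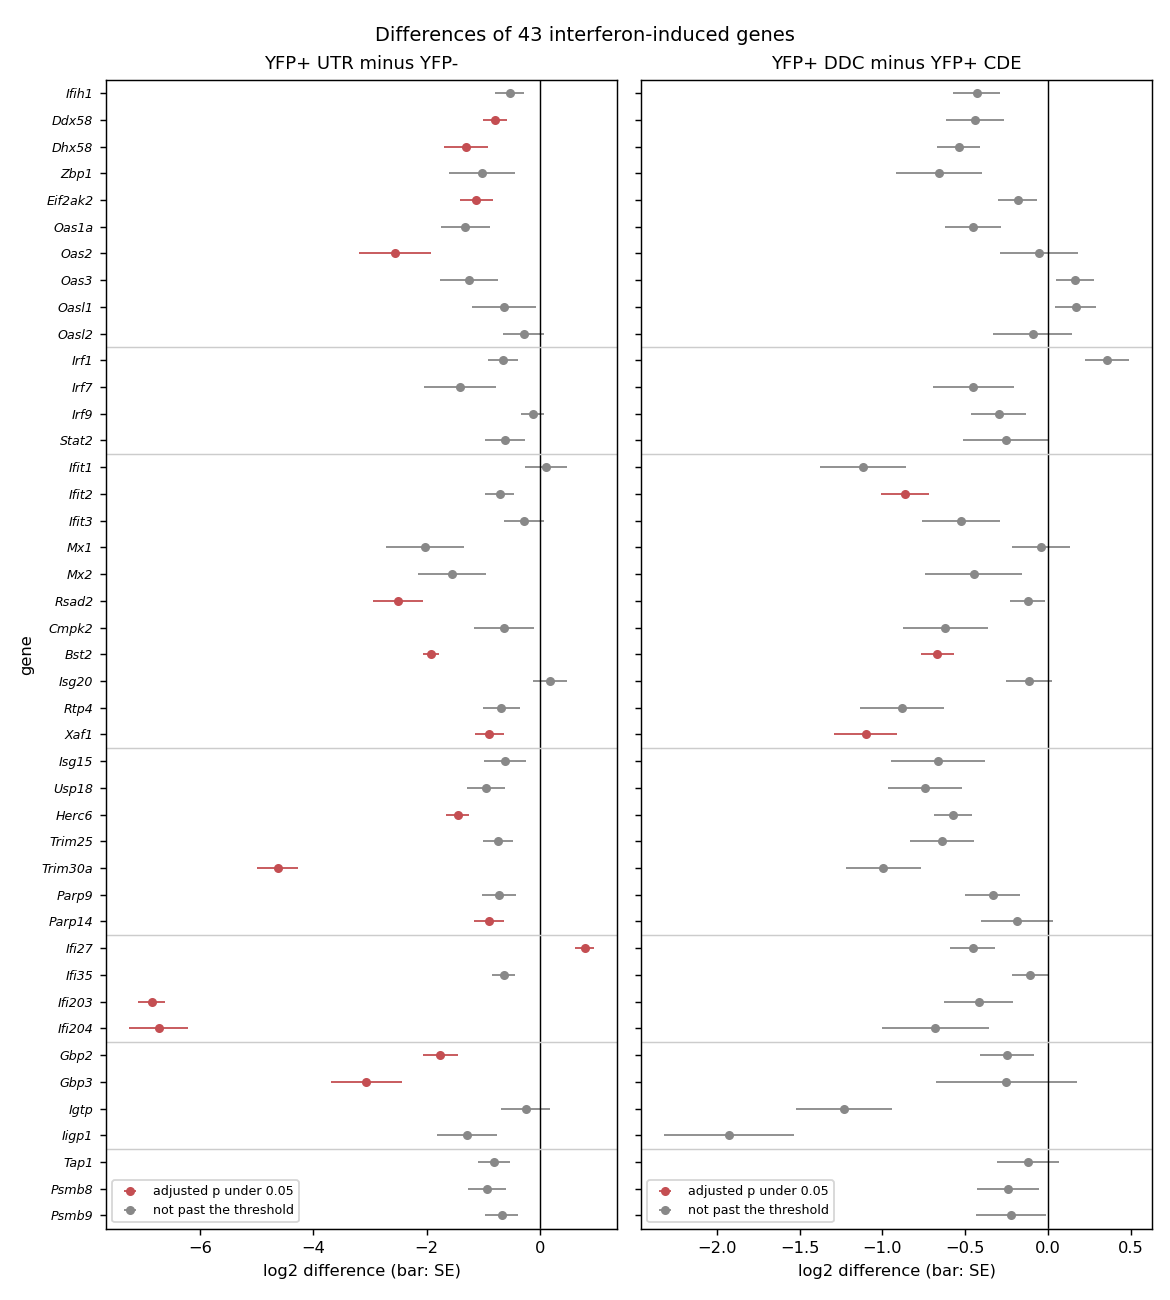
Log2 differences (x axis, bars show the SE) of the 43 genes, 1 per row, in the left panel for YFP+ UTR minus YFP- and in the right panel for YFP+ DDC minus YFP+ CDE, on separate scales, with red points for genes past an adjusted p of 0.05. In both panels 40 of the 43 points lie left of 0, with 15 red points in the left panel (Ifi27 alone to the right of 0) and 3 in the right panel.

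Compared with untreated YFP+ cells, Ifit2 was the gene called lower with DDC. This comparison shares its DDC arrays with that against CDE, so the 2 are not independent. In YFP+ DDC against YFP+ UTR, 1 of 43 genes (Ifit2) was lower and 0 higher, where 0.0647% and 0.0949% of all genes were called. Of the 43, 40 were negative, with a median of -0.36 against 0.01 for all genes, and 19 had all DDC arrays below both UTR arrays and 1 above, where 11.8% and 12.7% of all genes did. Ifit2 was 2.42-fold lower (-1.27 ± 0.16, adjusted p = 0.0338), a call lost in the fit of all 11 arrays and in each of the 7 fits that left out 1 YFP+ array other than UTR 1. The median of the 43 genes was -0.67 without UTR 1 and -0.10 without UTR 2.

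The largest differences from UTR were those of Iigp1, Igtp, Ifit1 and Ifit2, of which Ifit2 alone passed the threshold. Iigp1 differed by -1.72 ± 0.44 (adjusted p = 0.209), Igtp by -1.71 ± 0.32 (adjusted p = 0.108) and Ifit1 by -1.32 ± 0.29 (adjusted p = 0.156). In all 3 the DDC arrays lay below both UTR arrays. Rtp4 differed by -1.07 ± 0.28 (adjusted p = 0.229) and Xaf1 by -0.98 ± 0.21 (adjusted p = 0.149). Cmpk2, a mitochondrial nucleotide kinase that lies beside Rsad2, read 5.63, 6.65 and 5.93 on the DDC arrays, 6.54, 6.76 and 6.76 on the CDE arrays, 6.76 and 7.33 on the UTR arrays, and 6.85, 7.33 and 8.86 on the YFP- arrays. DDC 2 lay near the CDE and UTR values while DDC 1 and DDC 3 were lower, a difference of -0.98 ± 0.29 (adjusted p = 0.283). The positive differences were those of Oas3 (0.14 ± 0.13, adjusted p = 0.754), Irf1 (0.13 ± 0.15, adjusted p = 0.820) and Oasl1 (0.09 ± 0.14, adjusted p = 0.884). Of Oas3, the DDC arrays read 6.13, 6.24 and 6.37, the CDE arrays 6.0, 6.28 and 5.97, the UTR arrays 6.12 and 6.09, and the YFP- arrays 6.05, 7.73 and 8.28. Oasl1, which in the mouse limits Irf7 translation, read 6.86, 7.0 and 6.89 in DDC, 6.57, 6.80 and 6.89 in CDE, 6.66 and 7.0 in UTR, and 6.46, 7.04 and 8.91 in YFP-. Both varied little across the YFP+ arrays. Here too 11 of the 12 macrophage markers were negative, with a median of -0.67 and 0 past the threshold. In 9 of them all DDC arrays lay below both UTR arrays, where 11.8% of all genes did so. The sums of the 12 markers were 866 to 1280 in DDC and 1520 to 1710 in UTR. Of the other lists, 7 of 8 sinusoidal endothelium and 7 of 9 hepatocyte markers were negative. Positive were 5 of 8 neutrophil and monocyte, 5 of 9 lymphocyte, 5 of 6 plasmacytoid and 4 of 7 biliary markers. None of these was called, and the part of these cells was not tested.

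CDE left no interferon-induced gene past the threshold against untreated YFP+ cells. In YFP+ CDE against YFP+ UTR, limma called 0 of 43 genes, and 0% of all 23185 genes, in either direction; 4 of the 43 had an unadjusted p under 0.05, and the lowest adjusted p was 0.687. The median was -0.05, 26 were negative, and the SE ranged over 0.11 to 0.48, so differences of that order were not detectable with 3 and 2 arrays. In 4 genes all CDE arrays lay above both UTR arrays and in 1 below, where 11.5% and 10.5% of all genes did. The median was -0.28 without UTR 1 and 0.22 without UTR 2.

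The largest positive differences were those of Usp18 (0.68 ± 0.25, adjusted p = 0.710), Ifi204 (0.67 ± 0.36, adjusted p = 0.844, both groups near the floor), Dhx58 (0.34 ± 0.14, adjusted p = 0.758) and Bst2 (0.34 ± 0.11, adjusted p = 0.687). In these 4 the CDE arrays lay above both UTR arrays. Dhx58 read 6.54 and 6.74 on the UTR arrays and 7.04, 8.09 and 8.73 on the YFP- arrays. Mx2, a second dynamin-like GTPase, read 5.76, 5.47 and 5.38 on the DDC arrays, 5.96, 6.44 and 5.55 on the CDE arrays, 5.27 and 6.27 on the UTR arrays, and 6.27, 7.09 and 8.61 on the YFP- arrays. Trim25, a ubiquitin ligase acting with RIG-I, read 8.53, 8.50 and 8.98 on the DDC arrays, 9.24, 9.23 and 9.45 on the CDE arrays, 8.75 and 9.41 on the UTR arrays, and 9.56, 9.65 and 10.27 on the YFP- arrays. Each differed by 0.22 between CDE and UTR (adjusted p of 0.979 and 0.946), inside the spread of the UTR arrays. The largest negative differences were those of Gbp3 (-0.58 ± 0.48, adjusted p = 0.924), Igtp (-0.47, adjusted p = 0.897), Ifit2 (-0.41 ± 0.16, adjusted p = 0.740) and Oasl2 (-0.40 ± 0.27, adjusted p = 0.896). Oasl2, a ubiquitin-like relative of the synthetases, read 7.25, 7.79 and 7.59 on the DDC arrays, 7.41, 7.77 and 7.72 on the CDE arrays, 7.58 and 8.49 on the UTR arrays, and 8.22, 7.77 and 8.96 on the YFP- arrays. Its UTR 2 value stood above the other 7 YFP+ arrays. Cmpk2 (-0.36 ± 0.29, adjusted p = 0.923) and Irf1 (-0.22 ± 0.15, adjusted p = 0.896) followed.

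The 2 untreated YFP+ arrays differed from each other in these genes more than in the rest. On UTR 2, 39 of 43 genes were higher than on UTR 1, with a median difference of 0.56, against 50.0% of all genes and a median of 0.00. The gap was above 0.5 in 23 of the 43, against 5.18% of all genes. Igtp (8.45 and 9.80), Iigp1 (7.62 and 9.45), Gbp3 (4.55 and 6.09) and Isg15 (6.48 and 7.68) on UTR 1 and UTR 2 were among the widest. UTR 2 was the highest of the 8 YFP+ arrays for 27 of the 43 genes, against 11.7% of all genes, and the lowest was a DDC array for 33, against 40.6% of all genes. The within-group SD had a median of 0.17 in DDC, 0.17 in CDE, 0.40 in UTR and 0.58 in YFP- over the 43 genes, against 0.15, 0.12, 0.11 and 0.26 over all genes. On UTR 1 and UTR 2 the marker list means were 5.31 and 5.90 for sinusoidal endothelium, 4.69 and 5.00 for neutrophils and monocytes, 6.04 and 6.12 for plasmacytoid dendritic cells, 7.82 and 7.90 for hepatocytes, 6.56 and 6.45 for macrophages and Kupffer cells, and 4.71 and 4.68 for lymphocytes. The part of these cells in the gap was not tested.

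**Figure D5:**
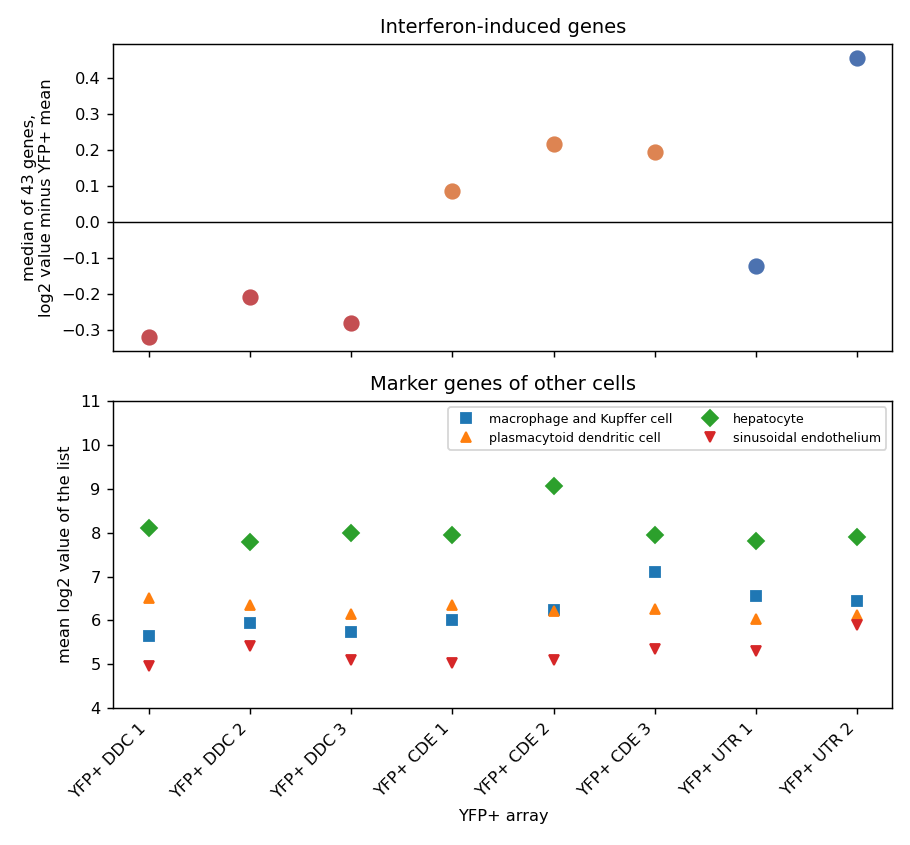
Upper panel: median over the 43 genes of the log2 value minus the YFP+ mean, on each of the 8 YFP+ arrays. The DDC arrays lie at -0.32, -0.21 and -0.28, the CDE arrays at 0.09, 0.22 and 0.20, and the UTR arrays at -0.12 and 0.46. Lower panel: mean log2 value of marker lists of other cells on the same arrays.

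On the YFP- arrays, 33 of the 43 genes were highest on YFP- 3, 9 on YFP- 2 and 1 on YFP- 1, against 35.6%, 33.3% and 31.1% of all genes. YFP- 3 had the highest macrophage list mean and YFP- 2 the only high lymphocyte mean, as given above. The neutrophil and monocyte mean was also highest on YFP- 2 (7.71, 10.23 and 7.32 on YFP- 1, YFP- 2 and YFP- 3). So was the plasmacytoid dendritic cell mean (7.42, 10.28 and 7.15), while the sinusoidal endothelium mean was highest on YFP- 1 (11.86, 10.30 and 10.71). Irf7, the amplifier of type I interferon, read 8.32, 9.70 and 11.04 on YFP- 1, YFP- 2 and YFP- 3, Oas2 7.75, 8.86 and 10.45, and Mx2 6.27, 7.09 and 8.61. The genes highest on YFP- 2 included the peptide supply genes Tap1 (8.43, 9.39 and 8.92), Psmb8 (9.21, 10.47 and 9.85) and Psmb9 (10.48, 11.34 and 10.97). Of the GTPases, Gbp2 and Gbp3 were highest on YFP- 3, Igtp on YFP- 2 and Iigp1 on YFP- 1. Type II interferon itself, Ifng, read 9.79 on YFP- 2 and 4.52 to 4.94 on the other 10 arrays. The part of any cell type or interferon in these values was not tested.

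The rest of the interferon pathway was described through lists of genes by role. Among 7 measured interferon ligands, 0 differed past the threshold between YFP+ UTR and YFP-. Ifnb1 was near the floor in all YFP+ groups. Between DDC and CDE, Ifnk, an epithelial type I interferon, was lower (-0.95 ± 0.17, adjusted p = 0.0460), at 4.50, 4.36 and 4.26 on the DDC arrays and 5.51, 5.27 and 5.20 on the CDE arrays. These values were low for the arrays, whose lower quartiles lay at 4.27 to 4.38 in both diet groups. Of 11 receptor and receptor-signalling genes, 1 was higher and 3 lower in YFP+ UTR than in YFP-, where 10.4% of all genes were higher and 8.46% lower, so the share that was higher is near that of all genes. The one higher was Ifnlr1, the type III interferon receptor chain that epithelial cells carry, at 6.41 and 6.19 on the UTR arrays and 5.30, 4.72 and 4.48 on the YFP- arrays (1.47, adjusted p = 0.00430). The kinase genes Jak2 and Jak1 and the type I receptor chain Ifnar2 were lower, by -1.85, -1.52 and -1.20. None of the 11 was called in the diet comparisons.

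Of 12 genes that sense nucleic acids upstream of interferon, 6 were lower in YFP+ UTR than in YFP- and 0 higher, and these counts and those of the next lists stand beside the same shares of all genes. The endosomal RNA receptor gene Tlr7 differed by -5.13 and the factor gene Irf8, of macrophages and dendritic cells, by -4.14, followed by Irf5 (-2.53), the DNA sensor gene Cgas (-1.84), Myd88 and Tbk1. Cgas was near the floor in the YFP+ groups. The double-stranded RNA receptor gene Tlr3 and the adaptor gene Mavs had YFP+ values of 8.60 or more on all 8 arrays. Of 24 further interferon-induced genes outside the list, 13 were lower and 0 higher in YFP+ UTR, with a median of -0.66, led by Sp100 (-5.28), Gbp4 (-3.38), Ifi27l2a (-3.18) and the chemokine gene Cxcl10 (-3.11). In DDC against CDE, 20 of these 24 were negative with a median of -0.17 and 0 past the threshold, and the largest were Ifi27l2a (-1.14 ± 0.37, adjusted p = 0.194) and the GTPase gene Irgm1 (-0.96 ± 0.25, adjusted p = 0.124). Of 12 genes of MHC class I presentation, 3 were lower in YFP+ UTR (Psmb10 by -1.0, Tap2 by -0.67 and Erap1 by -0.59) and 0 higher, and 0 were called in any diet comparison. In DDC against UTR and in CDE against UTR none of the genes on these lists was called.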

How the data were processed

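RNA of sorted liver cells was measured on 11 Affymetrix MoGene 2.0 ST arrays. The authors' deposited values are one log2 value per gene and array; base 2 was inferred from their range (2.55 to 13.57), and the array type is per the labels. The sources used here do not give background correction, normalization or probe summary; array medians lie close together, and no further scaling was applied. Of 25206 features, 23185 had 1 gene symbol in GEO's platform annotation and were tested; 2021 had none. No 2 arrays held identical values. Groups follow the labels.

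Differences were fitted with limma 3.58.1 (lmFit, eBayes) in R 4.3.3 across all 23185 genes, two-sided, with Benjamini-Hochberg adjustment over all genes and a threshold of 0.05. Comparisons with YFP- used all 11 arrays (7 residual degrees of freedom). Those among YFP+ groups used the 8 YFP+ arrays (5), because the YFP- arrays vary more. In the comparisons with YFP-, the less variable DDC and CDE arrays enter the shared spread. Over the 43 genes the median SD was 0.17 in DDC, 0.17 in CDE, 0.40 in UTR and 0.58 in YFP-. The p-values of YFP+ UTR against YFP- may therefore be too small. The script was tested on simulated data. Alternatives were other arrays in the fit, array weights, quantile normalization, trended robust moderation, a filter on dim features, the replicate number as a block, and each array left out. A group mean below the lower quartile of each of its arrays was called near the floor. Precision is limited by how few arrays each group has.

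The genes were matched by symbol, with no cut on their values, but they and the role and marker lists were chosen with earlier results of these data known. In each comparison, values of every array were given for the 6 genes of the list with the largest positive and negative differences and, among YFP+ groups, for genes past the threshold; from other pathway lists up to 4 genes past it or up to 2 where none passed. Values of other genes, such as Isg15, Ifng, Tlr3 and Mavs, were added after they were seen. Promoter windows came from RefSeq (GRCm38.p6).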

Additional observations from a re-analysis of the deposited data

Results flagged for a closer look

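For 3 interferon-induced genes the effect of DDC on YFP+ cells differed from that of CDE, tested directly as YFP+ DDC against YFP+ CDE with the UTR arrays in the fit only through its spread. The log2 differences were -0.86 for Ifit2, -0.67 for Bst2 and -1.1 for Xaf1, and each was lower on all 3 DDC arrays than on all 3 CDE arrays. Each call was lost when any 1 of those 6 arrays was left out.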

How the results depend on the processing

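No call changed direction in any alternative. YFP+ UTR against YFP- called 1 gene of the list higher and 14 lower; with the 5 UTR and YFP- arrays alone it called 0 and 4, and with 1 array left out 0 to 1 higher and 8 to 26 lower, the fewest without UTR 1 and the most without YFP- 1. Over all genes it called 4373, and 931 with those 5 arrays. The mean of the YFP+ groups against YFP- called 1 higher and 34 lower; array weights gave 0 and 24, and leaving out 1 array 22 to 37 lower. YFP+ DDC against YFP+ UTR called 1 lower. All 11 arrays and the replicate block gave 0, and the medians ran from -0.67 to -0.10 with 1 array left out. YFP+ DDC against YFP+ CDE called 3 lower; all 11 arrays and the replicate block gave 0, quantile normalization 1, and leaving out 1 array 0 to 6. Over all genes DDC against CDE called 97 higher and 172 lower, 130 and 141 after quantile normalization, 61 in all with the replicate block and 1 in all with 11 arrays; DDC against UTR called 37, and 0 with 11 arrays or with the block. CDE against UTR called 0 of the list in every alternative, with medians from -0.28 to 0.22 when 1 array was left out, and 46 genes in all without UTR 1. The cause of these changes was not tested. Same-numbered arrays did not deviate together throughout (r from -0.07 to 0.13 over genes). With so few arrays a group, deviations from the group mean are tied to each other. These r values therefore cannot settle whether the numbers pair the samples, and the labels do not say. The block gave 12 lower and 1 higher for UTR against YFP-, and 35 lower for all YFP+.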
